A study of Homo sapiens with 15 samples.

Results

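The contrast described here set cells in which doxycycline switched on the intracellular domain of NOTCH2 (NICD2) against cells in which it switched on the intracellular domain of NOTCH1 (NICD1). It rests on 6 polyA RNA-seq libraries, 3 of NICD2 and 3 of NICD1, out of the 15 in the series, chosen by the receptor named in their labels and not by any measured value. The other 9 libraries are 3 each of NICD3, NICD4 and an isogenic empty vector control (EV). EV levels are quoted last, for orientation only, and EV was no reference in any test. The cell line characteristic is HCT116, a human colorectal carcinoma line, while the descriptions and column names carry U373, a glioma line, and the labels do not settle which it was. They give no doxycycline dose or duration, do not say whether EV cells received the drug, whether a line was 1 clone, or whether replicates were separate cultures. The p-values therefore measure the spread between these libraries, which may be technical. NICD4 replicate 1 has labels that also name NICD3, and it was kept in NICD4. It enters neither group mean of the contrast. It does enter the gene filters, the scaling, the GC trend removal, the estimate of spread and the NICD4 medians quoted for chromosome stretches.

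NOTCH receptors are single-pass membrane proteins that are cut when a ligand on a neighbouring cell pulls on them. The freed intracellular domain enters the nucleus and joins the DNA-binding protein RBPJ and a MAML coactivator, and this complex switches on genes that include the HES and HEY repressors and NRARP. The 4 human receptors share this route, and their intracellular domains differ most toward the C-terminal end. In the colon, NOTCH signalling keeps progenitors dividing and holds back the secretory lineage.

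Promoters of 3 HES and HEY genes are printed because RBPJ binds the letters TGGGAA and because these genes did not move alike in the contrast. Each sequence is the RefSeq window on GRCh38.p14 from 250 bases before to 50 bases after the gene's start, read along the gene's own strand, with TGGGAA in capitals, or TTCCCA where the letters lie on the opposite strand. HES1 lies at chr3:194135898-194136197 on the plus strand, HES4 at chr1:1000048-1000347 on the minus strand and HEYL at chr1:39639594-39639893 on the minus strand.
HES1: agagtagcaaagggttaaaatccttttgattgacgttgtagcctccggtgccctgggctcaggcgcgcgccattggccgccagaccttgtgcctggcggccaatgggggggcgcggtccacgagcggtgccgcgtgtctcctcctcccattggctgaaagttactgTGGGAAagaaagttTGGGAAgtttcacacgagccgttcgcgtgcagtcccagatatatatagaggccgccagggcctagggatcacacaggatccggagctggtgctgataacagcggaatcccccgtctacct
HES4: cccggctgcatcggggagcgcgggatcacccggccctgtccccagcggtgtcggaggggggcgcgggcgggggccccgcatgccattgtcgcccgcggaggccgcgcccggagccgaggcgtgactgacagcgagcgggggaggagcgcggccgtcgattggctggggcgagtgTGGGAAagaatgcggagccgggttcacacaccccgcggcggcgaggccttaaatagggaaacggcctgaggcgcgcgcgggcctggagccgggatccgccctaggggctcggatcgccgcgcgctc
HEYL: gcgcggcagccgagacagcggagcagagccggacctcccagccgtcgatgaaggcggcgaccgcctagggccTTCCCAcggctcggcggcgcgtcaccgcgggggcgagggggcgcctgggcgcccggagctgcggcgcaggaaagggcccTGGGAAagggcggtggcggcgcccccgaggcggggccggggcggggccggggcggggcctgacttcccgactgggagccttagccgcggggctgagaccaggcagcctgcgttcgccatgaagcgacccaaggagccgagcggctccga

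The HES1 window held TGGGAA at 84 and 70 bases before the start, both on the gene's strand, and the HES4 window held it once, 76 bases before the start. HEYL had 1 copy on its own strand 99 bases before the start and 1 on the opposite strand 178 bases before it. Searched on both strands, TGGGAA stood in 24.0% of 35116 RefSeq promoter windows of the same length, and 2 or more copies on 1 strand in 2.28%. The longer GTGGGAA, which contains TGGGAA, stood in 6.25%. The windows of NRARP, ID3, EFNB2, RUNX1 and JAG1 did not hold these letters. A match is a description of letters, and binding was not measured.

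The 6 libraries held from 14673469 to 22785395 counted reads. Levels below are scaled CPM, reads relative to a library total of 1e6 after scaling by trimmed means of M values (TMM), and every fold change is log2 of NICD2 over NICD1 (± SE) on reads plus 1, which understates changes of the lowest genes. NICD2 libraries had less signal from GC-rich transcripts than NICD1 libraries. The slope of expression on transcript GC, in log2 units per 10 percentage points, was -0.09, -0.22 and -0.07 in NICD2 and 0.14, 0.27 and 0.09 in NICD1. In each group, replicate 2 was the farthest out. Each gene is therefore also given, where it matters, from a fit with each library's GC trend removed. Whether the GC shift arose in the cells or in library preparation was not tested. EPCAM, an epithelial surface protein, stood at 280 ± 26, 222 ± 22 and 152 ± 7.2 CPM in NICD2, NICD1 and EV (SD, n = 3 each), and CDX2, an intestinal transcription factor, at 37.7 ± 4.1, 49.4 ± 6.1 and 17.8 ± 0.9. The gut markers VIL1 (45, 20 and 73 reads over 3 libraries) and CDH17 (0, 2 and 7 reads) were at or near 0. The glial markers AQP4 (0, 0 and 1 read), OLIG2 (0, 0 and 1) and SOX10 (5, 6 and 7) were too. GFAP, also a glial marker, had more reads than VIL1 in each group (58, 99 and 129). In bulk RNA, fewer cells of a type and less RNA per cell cannot be told apart.

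NICD2 and NICD1 libraries differed widely. Of 15122 genes tested, 5626 (37.2%) were called at an adjusted p under 0.05 by limma with Benjamini-Hochberg adjustment over all tested genes, 2809 (18.6%) higher and 2817 (18.6%) lower in NICD2. A difference of at least 2-fold was called for 1127 genes (7.45%), 524 (3.47%) higher and 603 (3.99%) lower, and the median called gene differed by 0.59 on the absolute log2 scale. NICD2 and NICD1 libraries did not overlap for 54.7% of all tested genes and for 5506 of those called. The counts of every gene group below are to be read against these shares where they come from this fit. Counts with the GC trend removed or without a replicate 2 have a lower base. They are to be read against the all-gene counts of the same setting in the next paragraph, which for left-out libraries are again of 15122 genes.

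The even split depended on the scaling. With library totals alone and no TMM, the median over all genes moved up by 0.17 log2, and 3912 of 5712 calls (68.5%) were higher in NICD2, against 49.9% with TMM. Called genes lower in NICD2 had a median transcript GC of 58.4%, those higher 44.8%, and all tested genes 50.4%. With the GC trend removed, 4685 of 14737 genes were called, 2315 higher and 2370 lower, and 3543 of the 5528 called genes with a known GC stayed called in the same direction. Without NICD2 replicate 2 the count of calls was 2620 (1209 higher and 1411 lower), and without NICD1 replicate 2 it was 2658 (1242 and 1416), while 2313 genes were called whichever of the 6 libraries was left out. The counts of at least 2-fold calls were 707 and 709 without those libraries.

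**Figure D1:**
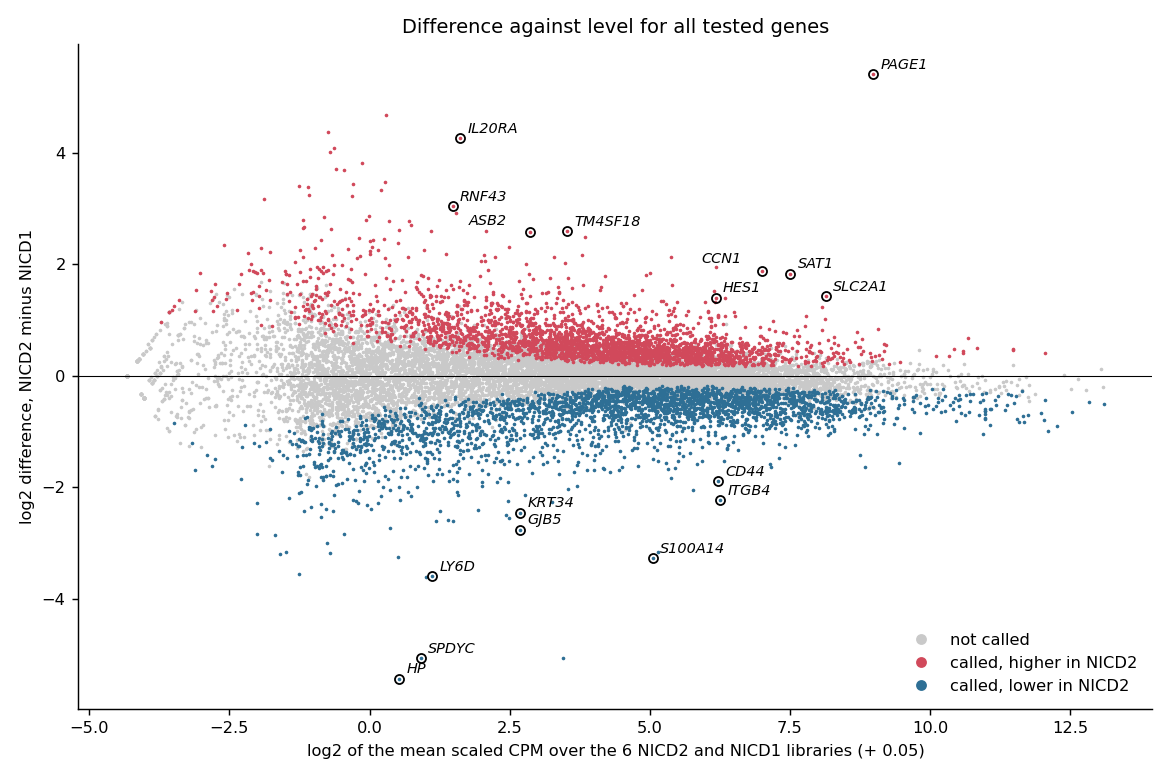
Log2 difference (NICD2 minus NICD1) of each tested gene against log2 of its mean scaled CPM over the 6 libraries, with called genes coloured by direction and a few named genes ringed. PAGE1, at 5.41, stands far above other genes of its level, and HP and SPDYC, which had 1 and 3 reads in NICD2, lie lowest among the named genes.

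The receptor genes gave small differences, apart from the sparsely read NOTCH4. NOTCH2 had 42.3, 40.2 and 42.8 CPM in NICD2 libraries, against 35.9, 38.2 and 35.4 in NICD1 libraries and a mean of 31.2 in EV. The groups did not overlap and the gene was called at 0.19 ± 0.07 (adjusted p = 0.036), but the call was lost when any 1 of the 6 libraries was left out and with the GC trend removed (0.14, adjusted p = 0.14). NOTCH1 had 29.9, 24.7 and 28.4 CPM in NICD2 libraries and 26.9, 30.2 and 27.9 in NICD1 libraries, so the groups overlapped. Its difference was -0.04 ± 0.08 (adjusted p = 0.75), and 0.35 once the GC trend was taken out (adjusted p = 0.014). These counts give no check of the induced domains, since the sources used here do not say whether reads from the vectors were counted. NOTCH3 was at 11.9 ± 1.8 and 12.6 ± 0.59 CPM in NICD2 and NICD1 and was not called. NOTCH4 fell by 1.29 ± 0.25 (adjusted p = 0.0018), to 0.879 ± 0.29 CPM in NICD2 against 2.19 ± 0.47 in NICD1 (SD, n = 3 each). Of the 4 receptors, 1 was called higher and 1 lower.

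HES1 and NRARP, 2 of the most widely used NOTCH readouts, rose more than 2-fold. HES1, a repressor that holds back differentiation (GRCh37 chr3:193853934-193856521), had 107, 101 and 107 CPM in NICD2 libraries, against 38.7, 37.5 and 42.8 in NICD1 libraries and a mean of 19.4 in EV. Every NICD2 library was more than 2-fold above every NICD1 library, at 1.40 ± 0.08 (adjusted p = 3.4e-08). NRARP, which is induced by NOTCH and promotes turnover of the NOTCH complex (GRCh37 chr9:140194083-140196703), had 103, 99.5 and 102 CPM in NICD2 and 43.8, 38.1 and 40.4 in NICD1. The difference was 1.32 ± 0.07 (adjusted p = 7e-09), and 1.82 with the GC trend removed.

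HES4, another repressor of the family, had 188, 135 and 177 CPM in NICD2 libraries, against 104, 127 and 90.6 in NICD1 libraries and a mean of 23.8 in EV. The lowest NICD2 library stood only just above the highest NICD1 library. HES4 was called at 0.64 ± 0.17 (adjusted p = 0.011), and at 1.42 with the GC trend removed (its transcript GC is 74.2%). HEYL, a repressor of the HEY branch, had 26.1, 23.8 and 25.6 CPM in NICD2 and 27.5, 30.6 and 26.9 in NICD1, against 16.4 in EV, and was not called (-0.17 ± 0.11, adjusted p = 0.23). HES6 was at 136 ± 18 and 161 ± 11 CPM and was not called (-0.25, adjusted p = 0.096), although after GC removal it was called higher (0.37, adjusted p = 0.0018). HES2 (0.16) and HEY1 (0.78, at 0.498 and 0.283 CPM in NICD2 and NICD1) were not called. Of the 7 HES, HEY and NRARP genes tested, 3 were called higher and 0 lower, with a median of 0.64 against 0.02 over all genes. With the GC trend removed, 5 were called higher and 0 lower. HES5 (0 reads in NICD2 and 0 in NICD1) and HES7 (15 and 5) were below the filter and not tested.

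**Figure D2:**
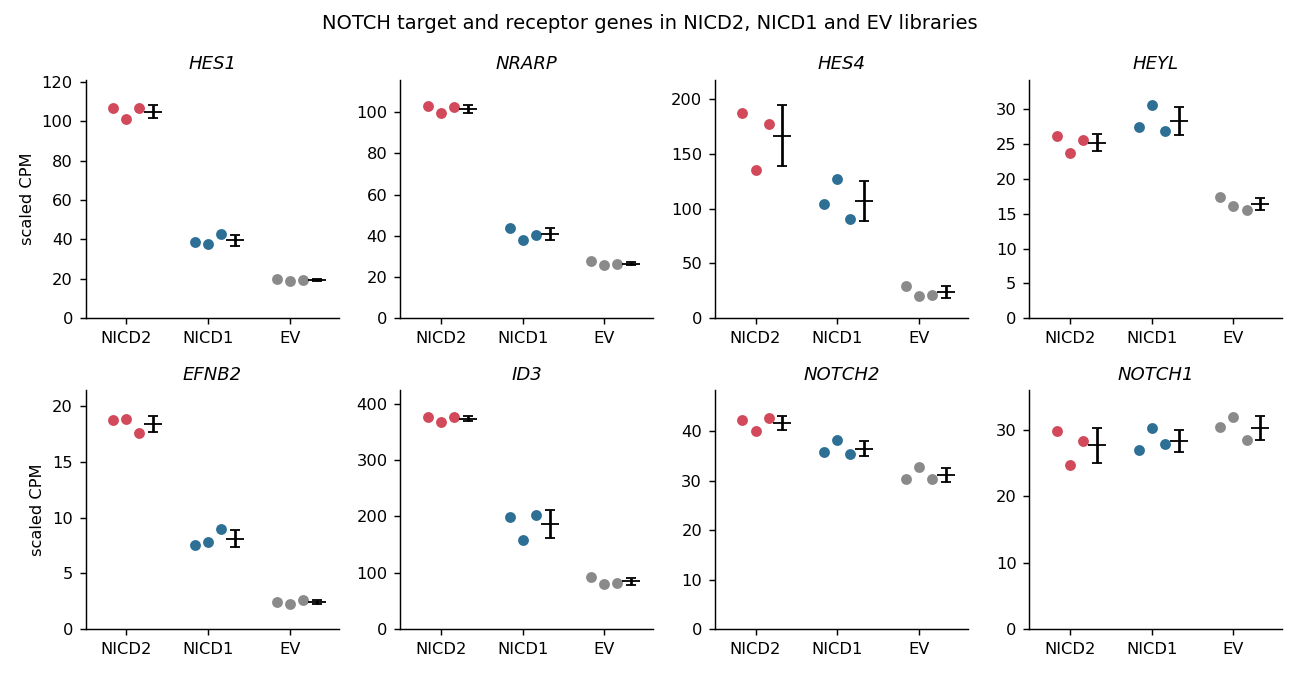
Scaled CPM of 4 NOTCH targets of the HES, HEY and NRARP set, of EFNB2 and ID3, and of NOTCH2 and NOTCH1, with 1 point for each library and the mean ± SD (n = 3) beside it. HES1, NRARP, EFNB2 and ID3 show NICD2 above NICD1 with a wide gap, and HES4 and NOTCH2 with a narrow gap. HEYL lies slightly lower in NICD2 than in NICD1, and for NOTCH1 the groups overlap.

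Ligand genes were expressed at low levels. JAG1, a ligand that activates NOTCH on neighbouring cells, was at 8.25 ± 0.56 CPM in NICD2 and 5.88 ± 0.58 in NICD1 and rose by 0.49 ± 0.12 (adjusted p = 0.0074). DLL1, another ligand, had 1.14, 1.01 and 0.937 CPM in NICD2, against 0.343, 0.409 and 0.437 in NICD1 and a mean of 1.75 in EV (1.26 ± 0.29, adjusted p = 0.0054). Both NICD groups lay below EV for DLL1. Of 8 ligand and fringe genes tested, 2 were called higher and 1, DLK2 (-0.46), lower, and 3 and 0 with the GC trend removed.

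Cofactors of the nuclear complex were called in both directions, 5 higher and 5 lower of 29, and 3 and 3 without NICD2 replicate 2 and 3 and 2 without NICD1 replicate 2. RBPJ itself was at 38.3 ± 1.7 CPM in NICD2 and 40 ± 0.54 in NICD1 and was not called (-0.06, adjusted p = 0.51). After GC removal RBPJ was called lower (-0.34, adjusted p = 0.014). L3MBTL3, a corepressor that binds RBPJ, had 5.41, 6.9 and 6.71 CPM in NICD2 and 2.88, 2.11 and 2.79 in NICD1 (1.27 ± 0.21, adjusted p = 0.00059), with EV at 12.5. TLE1, a Groucho-type corepressor that works with HES proteins, rose by 0.87 ± 0.13 (adjusted p = 0.00027), and SNW1, an RBPJ-binding coregulator, by 0.63 ± 0.14. HDAC2, a histone deacetylase, was called at 0.84 ± 0.22 (adjusted p = 0.01), a call lost without NICD2 replicate 2 or NICD1 replicate 2. MAML1, the coactivator, was not called (0.31, adjusted p = 0.083).

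Enzymes that cleave or modify NOTCH and its ligands counted 3 higher and 3 lower of 15, 1 and 2 with the GC trend removed, and 1 and 1 without replicate 2 of either group. NEURL1B, a ubiquitin ligase for NOTCH ligands, had 11.8, 9.28 and 12.2 CPM in NICD2, against 33.9, 37.3 and 32 in NICD1 and 27.8 in EV (-1.64 ± 0.10, adjusted p = 6.3e-08). The 3 NICD2 libraries were the low ones. NCSTN, the gamma-secretase subunit nicastrin, rose by 0.61 ± 0.12 (adjusted p = 0.0027).

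Among 31 other genes reported as NOTCH targets in the field, 11 were called higher in NICD2 and 9 lower, with a median of -0.13. With the GC trend removed the counts were 12 higher and 6 lower, with a median of -0.02. They were 7 and 4 without NICD2 replicate 2 and 8 and 5 without NICD1 replicate 2. SAT1, which catalyses the first step of polyamine breakdown, had 292, 280 and 278 CPM in NICD2 libraries, against 78.7, 76.9 and 83.7 in NICD1 libraries and 41.4 in EV (1.83 ± 0.09, adjusted p = 5.4e-09). EFNB2, an arterial ephrin, had 18.8, 18.9 and 17.6 CPM in NICD2, against 7.56, 7.78 and 9.01 in NICD1 and 2.44 in EV (1.18 ± 0.12, adjusted p = 8e-06). For both genes the libraries of a group lay close together and the groups lay far apart. SNAI2, a repressor of epithelial genes, had 1.74, 1.33 and 1.73 CPM in NICD2 and 0.412, 0.205 and 0.328 in NICD1 (2.19 ± 0.35, adjusted p = 0.00045), and was nearly unread in EV (0.0206). RUNX1, a transcription factor, was at 65.5 ± 3.3, 38 ± 3.2 and 10.6 ± 0.61 CPM in NICD2, NICD1 and EV and rose by 0.79 ± 0.12. SOX9, a progenitor factor of the gut, was at 78.4 ± 0.68, 51.9 ± 2.2 and 16.4 ± 0.98 CPM and rose by 0.59 ± 0.07 (adjusted p = 4.4e-05).

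Other reported targets ran the other way, rested on few libraries or stood highest in EV. CD44, a hyaluronan receptor, had 30.6, 33.6 and 30.7 CPM in NICD2 libraries, against 119, 117 and 116 in NICD1 libraries and 41.9 in EV, a fall of 1.89 ± 0.09 (adjusted p = 5.4e-09). All NICD2 libraries lay below EV and all NICD1 libraries far above it. CCND1, cyclin D1, was at 213 ± 6.5 CPM in NICD2 and 321 ± 9 in NICD1 (-0.59 ± 0.07, adjusted p = 3.8e-05), but its difference was -0.21 and not called with the GC trend removed (adjusted p = 0.2). ADAM19, a membrane protease, rose to 4.63 ± 0.14 CPM in NICD2 against 1.85 ± 0.44 in NICD1, with EV at 29 ± 2.9. MYC had 140, 210 and 132 CPM in NICD2 and 91.4, 63.1 and 108 in NICD1, with EV at 179. It was called at 0.88 ± 0.23 (adjusted p = 0.011), and the call was lost without NICD2 replicate 2 or NICD1 replicate 2, which held the highest and the lowest value. CR2, complement receptor 2, was at 6.52 ± 0.9 and 3.62 ± 0.27 CPM in NICD2 and NICD1 and 0.0333 in EV. Its call (0.83, adjusted p = 0.045) was lost when any 1 of the 6 libraries was left out.

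The ID proteins, which block basic helix-loop-helix factors, and the SOX factors were mixed. ID3 had 376, 368 and 376 CPM in NICD2 libraries, against 199, 158 and 202 in NICD1 libraries and 84.4 in EV (1.01 ± 0.14, adjusted p = 0.00014). ID2 was at 3.83 ± 0.44 and 2.23 ± 0.44 CPM and was called (0.77, adjusted p = 0.038), although leaving out either of 2 libraries in each group ended the call. Of the 3 ID genes tested, 2 were called higher and 0 lower, and 1 and 0 without replicate 2 of either group. ID1 was at 191 ± 18 and 204 ± 3.3 CPM in NICD2 and NICD1 and was not called (-0.10, adjusted p = 0.41). Of 8 SOX genes, 2 were called higher, SOX9 and SOX4 (0.31, adjusted p = 0.047), and 3 lower, among them SOX8 (-0.82 ± 0.12) and SOX12 (-0.69 ± 0.12). The SOX4 call was lost without any 1 of 5 libraries, and with the GC trend removed the list counted 1 higher and 2 lower, as it did without NICD1 replicate 2.

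The largest rises by the naming rule were not members of the NOTCH lists. PAGE1, a cancer-testis gene (GRCh37 chrX:49452053-49460596), had 1108, 745 and 1108 CPM in NICD2 libraries, against 23.6, 25.8 and 19.3 in NICD1 libraries and a mean of 380 in EV. It differed by 5.41 ± 0.21 (adjusted p = 1.6e-09), so that NICD2 lay above EV and NICD1 far below it. Genes of this family are similar in sequence, and how the authors' counting split shared reads is not known. IL20RA, a receptor chain for interleukins of the IL-20 family, had 5.14, 6.42 and 5.82 CPM in NICD2, against 0.275, 0.205 and 0.273 in NICD1 and 1.81 in EV (4.26 ± 0.21, adjusted p = 7e-09). RNF43, a ubiquitin ligase that removes WNT receptors from the cell surface, had 5.07, 4.48 and 5.23 CPM in NICD2, against 0.618, 0.614 and 0.437 in NICD1 and 8.35 in EV (3.04 ± 0.42, adjusted p = 0.00014). NICD1 libraries were the low ones for IL20RA and RNF43.

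A second kind of rise was from a low level in EV. TM4SF18, a tetraspanin-like membrane protein, had 19, 21.3 and 18.8 CPM in NICD2, against 3.78, 2.59 and 3.39 in NICD1 and 0.858 in EV (2.60 ± 0.22, adjusted p = 1.3e-06). ASB2, a subunit of a ubiquitin ligase, had 12.9, 11 and 13.3 CPM in NICD2, against 1.65, 2.32 and 2.19 in NICD1 and 0.268 in EV (2.57 ± 0.29, adjusted p = 2.4e-05). Both stood lowest in EV, higher in NICD1 and highest in NICD2. PI3, the protease inhibitor elafin, rose by 3.48 ± 0.58, to 2.17 ± 0.58 CPM in NICD2 against 0.155 ± 0.087 in NICD1, with EV at 0.0968. HSPB8, a small heat shock protein, was at 3.58 ± 0.39 CPM in NICD2 and 0.598 ± 0.28 in NICD1, with EV at 0.677.

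The remaining rises had EV near or above the NICD2 level, except RPS6KA2, at 2.34 ± 0.52, 0.406 ± 0.12 and 1.01 ± 0.12 CPM in NICD2, NICD1 and EV. TPP2, tripeptidyl peptidase, was at 24.2 ± 2.3, 4.44 ± 1.6 and 31.6 ± 1.6 CPM in NICD2, NICD1 and EV, and NLRP1, an inflammasome sensor, at 9.22 ± 1.2, 1.86 ± 0.59 and 45.7 ± 4.3. SCG2 (secretogranin II, 3.34 ± 0.31), GAS7 (2.78 ± 0.26), ARHGAP24 (2.78 ± 0.47), CSMD3 (2.70 ± 0.30), RPS6KA2 (a ribosomal S6 kinase, 2.39 ± 0.25) and SLC30A10 (a manganese exporter, 2.25 ± 0.16) averaged between 2 and 3.2 CPM in NICD2 and below 0.7 CPM in NICD1. For GAS7 the EV mean was 2.72 CPM, within the range of the NICD2 libraries.

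The largest falls began with 2 genes that were nearly unread in NICD2. HP, haptoglobin, had 1 read over the NICD2 libraries and 132 over the NICD1 libraries, a NICD1 over NICD2 ratio of 167 (95% exact interval 29.5 to 6650, counting error only). SPDYC, a cyclin-dependent kinase activator of the Speedy family, had 3 and 169 reads, a ratio of 71.3 (24.0 to 349). S100A14, a calcium-binding protein of epithelia, had 7.28, 5.21 and 6.21 CPM in NICD2 libraries, against 61.7, 67 and 52.2 in NICD1 libraries and 11 in EV (-3.27 ± 0.19, adjusted p = 4e-08). The NICD1 libraries were the high ones, several-fold above both NICD2 and EV. GJB5, a connexin of skin, had 1.4, 1.7 and 1.73 CPM in NICD2, against 10.5, 12.6 and 10.6 in NICD1 and 4.64 in EV (-2.76 ± 0.12, adjusted p = 2.9e-09). KRT34, a hair keratin, had 2, 1.82 and 1.97 CPM in NICD2, against 10.7, 10.8 and 11.1 in NICD1 and 5.99 in EV (-2.46 ± 0.16).

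TAGLN, the actin-binding protein transgelin (GRCh37 chr11:117070037-117075503), had 6.41, 7.54 and 6.95 CPM in NICD2 libraries, against 68, 47.5 and 76.1 in NICD1 libraries and 54.4 in EV (-3.16 ± 0.20, adjusted p = 7.2e-08). NICD1 lay near EV, and NICD2 far below both. TNFSF4, the costimulatory ligand OX40L, was at 1.56 ± 0.14, 9.19 ± 1.6 and 39.3 ± 3.8 CPM in NICD2, NICD1 and EV, and CPA4, a carboxypeptidase, at 1.6 ± 0.38, 9.53 ± 1.3 and 22 ± 0.91. Of the rest, CYP4F11 (a fatty acid hydroxylase, -3.60 ± 0.28), LY6D (-3.60 ± 0.35), NFE4 (-3.25 ± 0.25), LPAR5 (a lysophosphatidic acid receptor, -2.73 ± 0.25), MSLN (mesothelin, -2.60 ± 0.33), SPNS3 (-2.60 ± 0.35) and ALDH3A1 (an aldehyde dehydrogenase, -2.59 ± 0.26) were below 1.1 CPM in every NICD2 library and between 1.6 and 6.4 CPM in NICD1. The 30 genes named by the rule for rises and falls kept their call and direction without any 1 of the 6 libraries and with the GC trend removed.

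**Figure D3:**
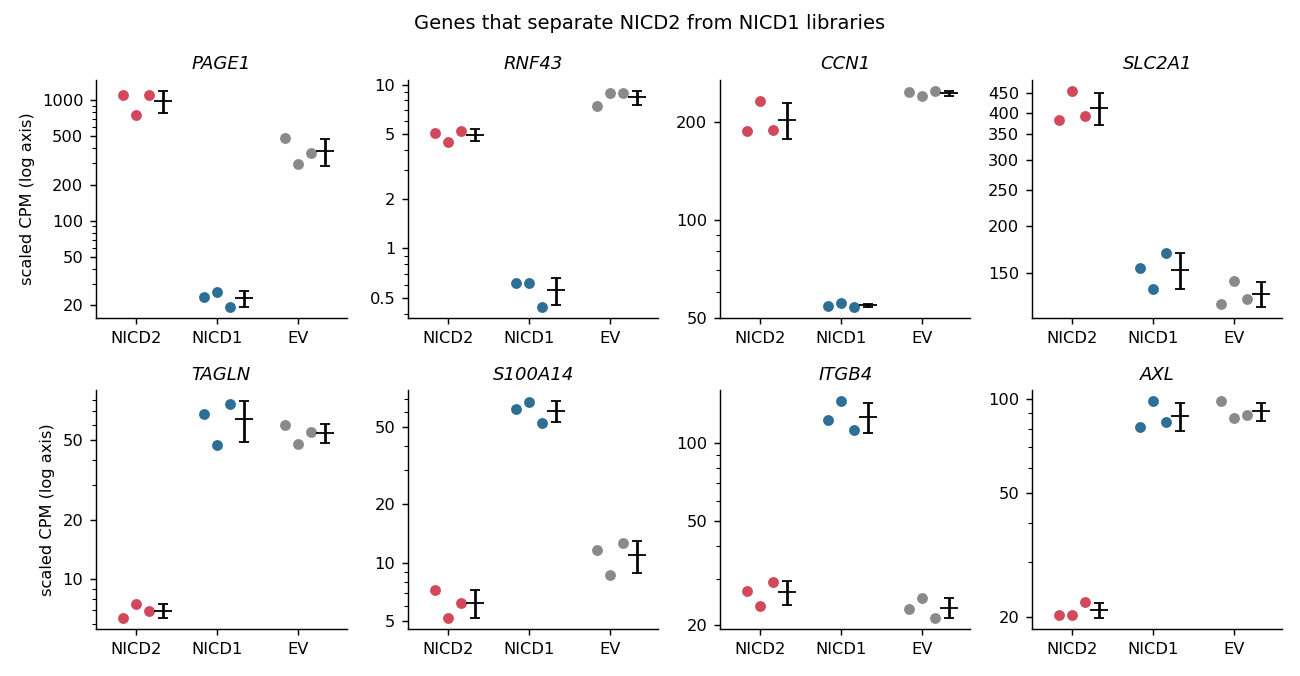
Scaled CPM (log axis) of 4 genes higher and 4 genes lower in NICD2, with 1 point for each library and the mean ± SD (n = 3) beside it. PAGE1, RNF43, CCN1 and SLC2A1 stand higher in NICD2 than in NICD1, and TAGLN, S100A14, ITGB4 and AXL lower, with no overlap between the groups in any panel.

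Immediate early genes and the feedback genes of the ERK kinase pathway counted 13 higher and 4 lower of 34, with a median of 0.38, 15 and 4 with the GC trend removed, and 8 and 3 without replicate 2 of either group. EGR1, a zinc finger factor induced within minutes of ERK activation, had 47.1, 48.5 and 50.5 CPM in NICD2, against 29.2, 26.1 and 26.2 in NICD1 and 118 in EV (0.84 ± 0.07, adjusted p = 2e-06). EGR3 (1.89 ± 0.39) and the orphan receptor NR4A2 (1.62 ± 0.23) rose at lower levels. The ERK inhibitor SPRY4 was at 40.1 ± 6.9 CPM in NICD2 and 20.2 ± 2.1 in NICD1 (0.97 ± 0.17, adjusted p = 0.0011), and the ERK phosphatase DUSP6 at 27.9 ± 1.2 and 19.6 ± 2.1 (0.51 ± 0.11). DUSP6 was at 255 ± 8.9 CPM in EV, far above both NICD groups. Another phosphatase, DUSP5, had 510, 533 and 512 CPM in NICD2 and 380, 366 and 389 in NICD1, with EV at 196 (0.45 ± 0.09, adjusted p = 0.0023).

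The 4 lower genes of that list included AP-1 subunits. FOSL1 had 366, 298 and 378 CPM in NICD2 libraries, against 685, 850 and 621 in NICD1 libraries and 156 in EV (-1.04 ± 0.17, adjusted p = 0.00059). FOSL2 was at 13.5 ± 0.38 and 28.1 ± 4.9 CPM in NICD2 and NICD1 (-1.04 ± 0.11), and JUND at 118 ± 23 and 210 ± 46 (-0.83 ± 0.19, or -0.23 with the GC trend removed). The fourth was ETV5 (-0.34).

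Targets of the YAP coactivator and genes of the TGF-beta and BMP pathways counted 8 higher and 5 lower of 26, and 11 and 4 with the GC trend removed. They counted 5 and 5 without NICD2 replicate 2 and 5 and 4 without NICD1 replicate 2. CCN1, a matricellular protein and YAP target, had 187, 233 and 189 CPM in NICD2 libraries, against 54.2, 55.3 and 54 in NICD1 libraries and 246 in EV (1.89 ± 0.09, adjusted p = 6.1e-09). NICD1 libraries were the low ones. The YAP target ANKRD1 (2.12 ± 0.21) and the related CCN2 (1.01 ± 0.15) rose at 1.35 ± 0.3 and 7.52 ± 0.55 CPM in NICD2. AXL, a receptor tyrosine kinase often listed as a YAP target, ran the other way, with 20.4, 20.3 and 22.4 CPM in NICD2, against 81, 98.1 and 84.2 in NICD1 and 91.1 in EV (-2.06 ± 0.11, adjusted p = 2e-08). The BMP inhibitor SMAD6 fell by 1.20 ± 0.27, and TGFB1, the ligand, by 0.56 ± 0.07.

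Matrix genes counted 10 higher and 4 lower of 28, with a median of 0.01. COL12A1, a fibril-associated collagen, was at 14.3 ± 1.1 CPM in NICD2 and 4.29 ± 0.94 in NICD1 (1.75 ± 0.18, adjusted p = 6.9e-06), LAMA3, a laminin chain of epithelial basement membranes, at 2.97 ± 1 and 0.802 ± 0.21 (1.79 ± 0.36), and THBS1, a matricellular glycoprotein, at 40.7 ± 15 and 19.4 ± 4.7 (1.03 ± 0.21). COL6A2 (-0.68 ± 0.13) and FBLN1 (-0.67 ± 0.14) fell, both by less than 0.5 with the GC trend removed. Contractile genes counted 2 higher and 6 lower of 15, and 1 and 4 without replicate 2 of either group. Beside TAGLN, DES (desmin, -1.75 ± 0.25), TGFB1I1 (a focal adhesion protein, -1.69 ± 0.16) and CNN1 (calponin, -1.33 ± 0.24) fell, while TPM1, a tropomyosin, rose by 1.28 ± 0.20. Among 10 mesenchymal genes tested, 6 were called higher and 2 lower, with a median of 0.78, and 4 and 2 without replicate 2 of either group. Their summed level ran the other way, at 141 to 183 CPM in NICD2 and 220 to 314 CPM in NICD1, and most of it was S100A4. VIM, vimentin, was at 1.84 ± 0.24, 0.625 ± 0.25 and 21.7 ± 0.29 CPM in NICD2, NICD1 and EV (1.55 ± 0.32), and ZEB1, a repressor of epithelial genes, at 1.91 ± 0.23, 1.03 ± 0.2 and 5.63 ± 0.56. S100A4, at 103 ± 22 CPM in NICD2 and 198 ± 44 in NICD1 (-0.94 ± 0.21), and the protease MMP9 (-1.32 ± 0.29) fell.

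Colorectal epithelial genes counted 4 higher and 7 lower of 21, with a median of -0.17 that was -0.03 with the GC trend removed. The counts were 1 and 5 without NICD2 replicate 2 and 1 and 4 without NICD1 replicate 2. ST14, the membrane protease matriptase, had 177, 162 and 174 CPM in NICD2 libraries, against 293, 336 and 272 in NICD1 libraries and 53.9 in EV (-0.81 ± 0.11, adjusted p = 0.00016). The epithelial factor ELF3 (-0.92 ± 0.15) and the tight junction protein CLDN3 (-1.13 ± 0.17) fell too. KRT8, the simple-epithelial keratin, had 6524, 5333 and 6553 CPM in NICD2 and 8178, 9898 and 7456 in NICD1, with EV at 1062. Its call (-0.47, adjusted p = 0.043), like those of EPCAM (0.34, adjusted p = 0.045) and CDX2 (-0.39, adjusted p = 0.019), was lost with the GC trend removed and without replicate 2 of either group. The EPCAM and KRT8 calls were also lost without replicate 1 of either group, and that of KRT8 without NICD2 replicate 3. Of 13 secretory genes tested, 3 were called higher and 1 lower, among them CREB3L1 (0.59 ± 0.15) and FOXA3 (-0.80 ± 0.23), whose call was lost without replicate 2 of either group. Of 10 stem and surface markers, 3 were called higher, BMI1 (0.63 ± 0.15) and ITGB1 (0.58 ± 0.14) among them, and 2 lower, and 2 and 1 without replicate 2 of either group.

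Adhesion and growth factor genes held single large changes. ITGB4, the integrin of hemidesmosomes, had 27.1, 23.6 and 29.3 CPM in NICD2 libraries, against 122, 144 and 112 in NICD1 libraries and 23.3 in EV (-2.23 ± 0.12, adjusted p = 2e-08), so that NICD2 stayed near EV. ITGA3 fell by 0.48 ± 0.06, and integrins counted 1 higher and 3 lower of 15. EREG, an EGF receptor ligand, had 70 reads over the NICD2 libraries and 2 over the NICD1 libraries, a ratio of 27.7 (95% exact interval 7.37 to 233, counting error only). IGFBP6, which binds IGF-II, had 78.8, 57.4 and 78.3 CPM in NICD2, against 211, 242 and 184 in NICD1 and 10.4 in EV (-1.58 ± 0.17, adjusted p = 1.3e-05). The receptor tyrosine kinases MET (-0.73 ± 0.12), ERBB2 (-0.49 ± 0.11) and ERBB3 (-0.45 ± 0.09) fell. Growth factor receptors and ligands as a list counted 6 higher and 6 lower of 32, and 3 and 5 without NICD2 replicate 2 and 2 and 7 without NICD1 replicate 2. WNT feedback genes and targets counted 4 higher, led by RNF43, and 5 lower of 20. These were 4 and 1 with the GC trend removed, 3 and 2 without NICD2 replicate 2 and 2 and 2 without NICD1 replicate 2. Ephrins and Eph receptors counted 2 higher, EFNB2 and EFNA1 (0.62 ± 0.14), and 0 lower of 15.

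Hypoxia and glycolysis genes counted 13 higher and 7 lower of 36, and 7 and 4 without NICD2 replicate 2 and 7 and 3 without NICD1 replicate 2. SLC2A1, the glucose transporter GLUT1, had 383, 458 and 392 CPM in NICD2 libraries, against 154, 136 and 169 in NICD1 libraries and 132 in EV (1.43 ± 0.12, adjusted p = 9.6e-07). SLC2A3, the transporter GLUT3, rose by 1.64 ± 0.14 at 5.14 ± 0.39 CPM in NICD2. HIF1A, the oxygen-regulated factor, was at 23.4 ± 3.6, 9.87 ± 3.2 and 42.8 ± 7 CPM in NICD2, NICD1 and EV (1.28 ± 0.23, adjusted p = 0.001). Hexokinase HK2 (0.67 ± 0.12) and NDRG1 (0.91 ± 0.08) rose, whereas the hypoxia-induced CA12 (-1.16 ± 0.17) and ADM, at 3.36 ± 0.37 CPM in NICD2 and 6.8 ± 0.85 in NICD1, fell.

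Cholesterol synthesis genes counted 15 higher and 4 lower of 28, and 14 higher and 1 lower with the GC trend removed. ACAT2, a thiolase at the start of the route, had 102, 150 and 102 CPM in NICD2, against 49.2, 31.3 and 54.3 in NICD1 and 125 in EV (1.41 ± 0.26, adjusted p = 0.0014). HMGCS1, which makes HMG-CoA, was at 58.8 ± 16 and 25.9 ± 4.8 CPM in NICD2 and NICD1 (1.17 ± 0.19), and LSS, lanosterol synthase, at 84.7 ± 3.4 and 49.1 ± 2.5 (0.79 ± 0.07). FDPS was called (0.93, adjusted p = 0.013) but not without NICD2 replicate 2 or NICD1 replicate 2. Left without either of those libraries, the list counted 11 higher and 1 lower.

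Cytosolic ribosomal protein genes counted 1 higher and 58 lower of 81, with a median of -0.44. For 72 of them every NICD2 library was below every NICD1 library, and for 2 every NICD2 library was above. Over all 15122 genes tested, the same counts were 4049 below and 4224 above. They took 12.15% to 14.05% of reads in NICD2 libraries, 15.92% to 17.79% in NICD1 and 10.22% to 12.72% in EV. With the GC trend removed 62 were called lower and 1 higher. The count fell to 16 lower without NICD2 replicate 2 and to 21 lower without NICD1 replicate 2, with 0 higher in both, and with library totals alone it was 38 lower and 1 higher (median -0.27). These genes have many processed pseudogenes, so their reads may be split. Nuclear-encoded subunits of the respiratory chain counted 4 higher and 9 lower of 42 (median -0.18), with NDUFA13 (-0.88), COX8A (-0.64) and ATP5MC1 (-0.61) among those lower. With the GC trend removed 2 were called higher and 14 lower, and without replicate 2 of either group 0 and 3. Of the 13 mitochondrially encoded mRNAs, 1 was called higher and 1 lower, and 0 and 7 with the GC trend removed and 0 and 1 without replicate 2 of either group. The lower one, MT-ND3, had 1620, 1248 and 1655 CPM in NICD2 and 2659, 2528 and 2434 in NICD1 (-0.76 ± 0.12).

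Regulators of the G1 phase held the largest cell cycle changes. CDK6, a kinase partner of D cyclins, had 104, 110 and 102 CPM in NICD2 libraries, against 36.5, 34.4 and 38.7 in NICD1 libraries and 42.2 in EV (1.53 ± 0.10, adjusted p = 1e-07). CDKN2B, an inhibitor of CDK4 and CDK6, had 6.61, 8.8 and 7.4 CPM in NICD2 and 1.85, 1.43 and 1.8 in NICD1 (2.13 ± 0.16, adjusted p = 3.8e-07). A kinase and its inhibitor thus both rose, while CDKN2C, another inhibitor of the family, fell by 0.70 ± 0.11. The list of D cyclins and inhibitors counted 5 higher and 4 lower of 19, or 6 and 2 with the GC trend removed, 4 and 2 without NICD2 replicate 2 and 5 and 2 without NICD1 replicate 2. Mitotic genes counted 11 higher and 6 lower of 35, but 3 higher and 8 lower with the GC trend removed, 0 higher and 3 lower without NICD2 replicate 2, and 1 higher and 3 lower without NICD1 replicate 2. KIF20A, a mitotic kinesin, was called at 0.96, a call lost without either of those libraries, and MKI67, the proliferation marker Ki-67, fell by 0.42 ± 0.10. DNA replication genes counted 8 higher and 5 lower of 38, with MCM10 at 0.48 ± 0.10, but 1 and 1 without replicate 2 of either group. MYC targets and ribosome biogenesis genes counted 8 higher and 6 lower of 34, 9 and 2 with the GC trend removed, and 2 and 1 without replicate 2 of either group. ODC1, the first enzyme of polyamine synthesis, had 462, 535 and 458 CPM in NICD2 and 336, 287 and 333 in NICD1 (0.61 ± 0.10). WDR12 (0.77) and PPAN (-1.14), both of ribosome assembly, lost their calls without replicate 2 of either group.

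Targets of the p53 tumour suppressor counted 2 higher and 9 lower of 29, although the list's median was 0.01. GDF15, a stress-induced cytokine, had 55.3, 50.5 and 59 CPM in NICD2 libraries, against 125, 126 and 123 in NICD1 libraries and 39.6 in EV (-1.18 ± 0.07, adjusted p = 6.7e-08). SESN2, a stress-induced inhibitor of mTORC1 signalling, fell by 0.99 ± 0.12 and the apoptosis effector BAX by 0.72 ± 0.13. With the GC trend removed the counts were 2 higher and 10 lower, without NICD2 replicate 2 1 and 6, and without NICD1 replicate 2 1 and 7. Genes of the ATF4 and unfolded protein responses counted 9 higher and 8 lower of 37, and 5 and 5 without NICD2 replicate 2 and 5 and 4 without NICD1 replicate 2. The amino acid transporter SLC38A2 was at 124 ± 11 CPM in NICD2 and 58.9 ± 3.1 in NICD1 (1.07 ± 0.10), and the mTORC1 inhibitor DDIT4 at 32.6 ± 3 and 60.5 ± 3.1 (-0.90 ± 0.10).

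Interferon-stimulated genes counted 8 higher and 7 lower of 29, but 5 and 6 without NICD2 replicate 2 and 3 and 5 without NICD1 replicate 2. OAS3, an antiviral synthetase, rose by 0.90 ± 0.14, and OAS2 was called at 1.89 ± 0.49, a call lost without NICD1 replicate 2. The small membrane protein IFITM2 had 24.4, 23.4 and 28.8 CPM in NICD2, against 68.9, 67.9 and 62.9 in NICD1 and 37.9 in EV (-1.39 ± 0.12, adjusted p = 1.2e-06), and ISG15, a ubiquitin-like modifier, was at 212 ± 39 and 396 ± 88 CPM (-0.90 ± 0.22). Antigen presentation genes counted 5 higher and 9 lower of 25, and 3 and 5 without NICD2 replicate 2 and 4 and 5 without NICD1 replicate 2. HLA-DRA, a class II chain, rose by 1.69 ± 0.27 to 2.71 ± 0.42 CPM in NICD2, and its activator CIITA by 1.49 ± 0.29 at 0.796 ± 0.054 CPM. The class I gene HLA-E fell by 0.89 ± 0.09, and reads of class I paralogs may be split between them. NF-kB subunits and targets counted 0 higher and 7 lower of 19, 1 and 5 with the GC trend removed, and 0 and 3 without replicate 2 of either group. IL32, a proinflammatory cytokine, fell by 1.82 ± 0.32 and the subunit RELB by 0.66 ± 0.12, the last by 0.23 with the GC trend removed.

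Among 19 cancer-testis genes, 4 were called higher and 1 lower, and 2 and 0 without NICD2 replicate 2 and 4 and 0 without NICD1 replicate 2. After PAGE1 came PRAME, with 85, 90.9 and 92.5 CPM in NICD2 and 41.9, 43.8 and 45.8 in NICD1 (1.03 ± 0.07, adjusted p = 1.6e-07). MAGEA3 (0.73) lost its call without replicate 2 of either group. Polycomb and DNA methylation genes counted 6 higher and 2 lower of 20, and 2 and 0 without replicate 2 of either group. RBBP4, a histone-binding subunit, had 4.54, 20.3 and 5.97 CPM in NICD2 and 3.02, 1.71 and 4.04 in NICD1, so that 1 library set the NICD2 mean, and its call was lost without that library or NICD1 replicate 2. DNMT3A was called lower (-0.67, adjusted p = 0.015), a call lost without replicate 2 of either group or NICD1 replicate 1.

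Of 8 glioma and astrocyte markers tested, 1 was called higher and 4 lower, or 1 and 2 with the GC trend removed and likewise without replicate 2 of either group, and their summed level was 99.5 to 105 CPM in NICD2 and 76.7 to 82.7 in NICD1. SLC1A3, a glutamate transporter found beyond glia, had 46.4, 56.7 and 47.4 CPM in NICD2, against 14.6, 10.8 and 16.9 in NICD1 and 20.3 in EV (1.85 ± 0.15, adjusted p = 9e-07). GFAP was at 0.981 ± 0.09 and 2.09 ± 0.21 CPM (-1.05 ± 0.26), and CSPG4 fell by 1.24 ± 0.19. Neuronal markers counted 1 higher and 1 lower of 8, the lower being SYN1 (-1.65 ± 0.28), and 0 and 1 without NICD1 replicate 2. Endothelial and arterial genes counted 2 higher, EFNB2 and NRP2 (1.56 ± 0.28), and 3 lower of 14, or 2 and 1 with the GC trend removed and 2 and 2 without replicate 2 of either group. T-lineage NOTCH targets counted 0 higher and 4 lower of 11, 2 and 3 with the GC trend removed, 0 and 0 without NICD2 replicate 2 and 1 and 1 without NICD1 replicate 2. LCK (-1.05) and TRIB2 (-1.87), both at or below about 1 CPM, lost their calls without NICD2 replicate 2 or 3, and TRIB2, whose groups overlapped, also without any NICD1 library.

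**Figure D4:**
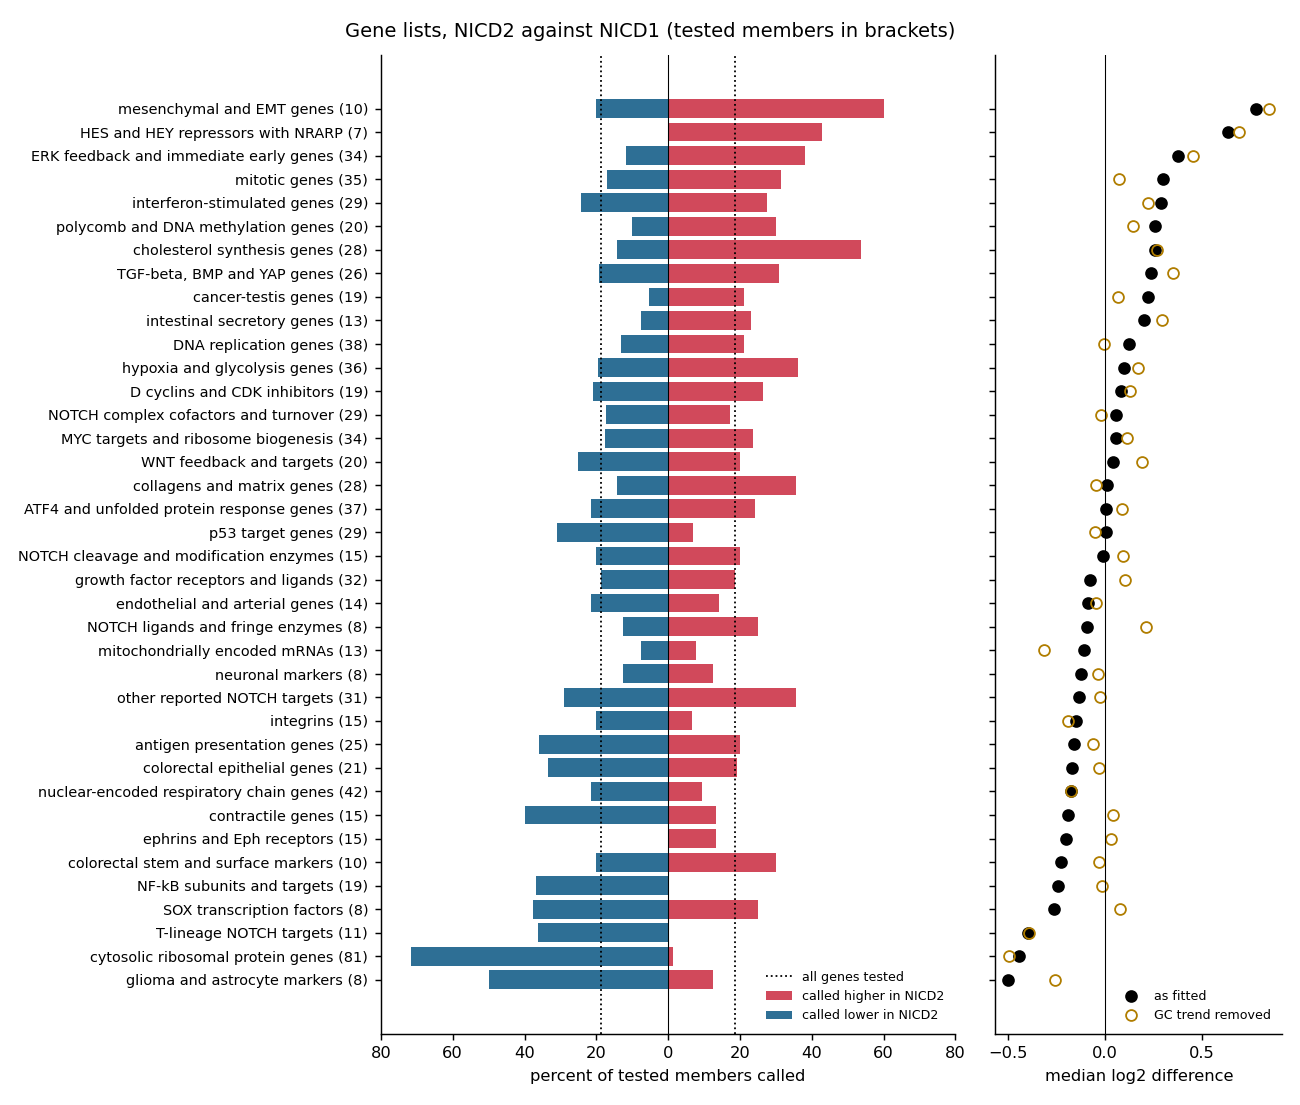
For lists with at least 7 tested members, the percent called higher (red) or lower (blue) in NICD2, with dotted lines at the 18.6% of all tested genes called in each direction, and at right the list's median log2 difference as fitted and with the GC trend removed. Of the lists drawn, ribosomal protein genes reach furthest on the lower side, and mesenchymal and cholesterol synthesis genes on the higher side.

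Differences also ran along chromosomes. In 10 Mb bins (GRCh37, genes with a mean of at least 2 CPM over the 15 libraries, bins of at least 15 genes, GC trend removed), the median difference lay within 0.2 log2 in 94.0% of 252 bins and at or beyond 0.35 in 8, of which 4 were the consecutive last bins of chromosome 11. These stretches were chosen after their values were seen, so they are described with no test. From 90 Mb to the end of chromosome 11, 140 of 153 genes (91.5%) were lower in NICD2, with a median of -0.55, against -0.01 for the other 523 genes of that chromosome. Against the EV mean the 3 NICD2 libraries had medians of -0.01, 0.04 and 0.02 over the stretch and the 3 NICD1 libraries 0.53, 0.55 and 0.52. The NICD3 and NICD4 groups stood at 0.50 and 0.50, so NICD2 lay with EV and the other 3 groups above. TAGLN, ST14 and ESAM lie in this stretch, and the fall of TAGLN was far larger than its median.

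A second stretch, 40 to 50 Mb of chromosome 13, had 27 of 33 genes higher in NICD2, with a median of 0.76, against 0.04 for the other 154 genes of the chromosome. Against the EV mean its medians were -0.04, -0.00 and 0.03 in NICD2 libraries and -0.74, -0.63 and -0.74 in NICD1 libraries, while NICD3 and NICD4 stood at -0.03 and -0.06. TSC22D1, a leucine zipper factor in it (GRCh37 chr13:45007655-45151283), had 111, 124 and 111 CPM in NICD2, against 29.9, 29.4 and 29.4 in NICD1 and 81.7 in EV (1.96 ± 0.12, adjusted p = 4e-08). ZC3H13, part of the RNA methylation complex, rose by 1.10 ± 0.07 and the tumour suppressor RB1 by 0.92 ± 0.17. On chromosome 5, from 90 to 100 Mb, 15 of 16 genes were higher (median 0.48). On chromosome 4, 12 of 15 were higher from 170 to 180 Mb (median 0.36), and all 27 were lower from 70 to 80 Mb (median -0.38). EREG lies in that last stretch but was below the 2 CPM filter of the bins, and it rose (3.71). Leaving out NICD2 replicate 2 or NICD1 replicate 2 kept the sign of the medians of all these stretches. From 170 to 180 Mb of chromosome 4 the median was then 0.27 and 0.24, below the 0.35 used to name a bin. DNA copy number was not measured, and its part in these values was not tested.

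**Figure D5:**
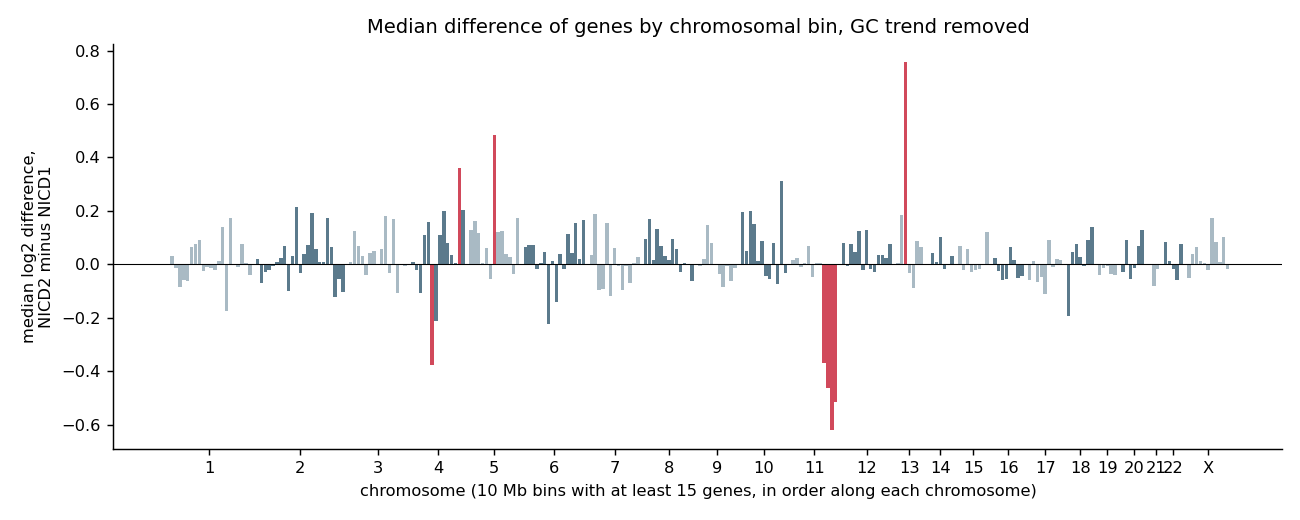
Median log2 difference (NICD2 minus NICD1, GC trend removed) of the genes in each 10 Mb bin, in order along the chromosomes, with bins at or beyond 0.35 in red. The last 4 bins of chromosome 11 are low, and 1 bin of chromosome 13, at 0.76, is the highest.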

How the data were processed

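RNA was extracted with TRIzol and made into TruSeq RNA v2 polyA libraries, per the labels' protocols. Reads were aligned with TopHat2 2.0.6 and counted with HTSeq on GRCh37, per the submitters' processing notes. Strandedness, gene annotation and treatment of vector reads are not given in the sources used here, so antisense and overlapping genes are uncertain. The deposited values are log2 of the read count plus 1 per gene, per the file headers. Undoing the log gave whole counts within 0.001 for 100% of values.

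Of 31352 identifiers (6041 without a symbol), genes with at least 0.548 CPM in 3 libraries and 15 reads in all were tested. Counts were scaled by TMM, 1 read was added, and limma 3.58.1 (trended, robust prior, statmod 1.5.0, R 4.3.3) was fitted to all 15 libraries with 1 mean per group. The p-values are two-sided. Voom on the recovered counts and other scalings, filters, GC removal and left-out libraries were tried. The fit was also run on simulated counts with the same dispersion for all genes. They held no GC trend and no outlying replicate, so that run did not cover these features of the real libraries. Transcript GC was known for 14737 of 15122 genes (97.5%). RefSeq gave promoters.

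Named genes are the 15 largest rises and falls among called protein-coding genes with at least 2 CPM in the higher group and no overlap, list members and ribosomal protein genes. Members, lists and rules were chosen with earlier results of these data known. Genes of the chromosome stretches and the non-coding genes were chosen after their values were seen.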

Additional observations from a re-analysis of the deposited data

How the results depend on the processing

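Calls of named genes kept their direction under every setting run (160 of 160), and 113 kept direction and call throughout. Leaving out 1 library at a time gave 2620 to 5801 calls and 707 to 1424 of at least 2-fold. With a mean of at least 2 CPM required, 632 genes of 11663 tested were called at 2-fold or more. Chosen after seeing the data, GC removal without NICD2 replicate 2 gave 2476 calls (586 at 2-fold), GC removal without NICD1 replicate 2 gave 2598 (605), leaving out both gave 1359 (485), and leaving out both with GC removal gave 1504 (441). The cause was not tested. Voom gave 5837 calls, the 6 libraries alone 5373 and no filter 4647. The replicate block gave 5791 calls (1134 at 2-fold), and 4773 with GC removal. Deviations from the group means had same-number correlations of -0.06, -0.43 and -0.26 between NICD2 and NICD1. Replicate 2 had the outermost GC slope of each group, in opposite directions, so these values cannot decide whether samples were paired by number. No NICD2 library correlated best with the NICD1 library of its own number. The 35 reversals were all in genes not called in the first place. NOTCH1 was 0.353 with GC removal and with GC removal and the replicate block, 0.137 on library totals, -0.0954 to 0.0413 leaving out 1 library at a time, 0.324 and 0.362 after GC removal without replicate 2 of NICD1 and of NICD2, 0.0885 without both and 0.333 without both after GC removal. NOTCH3 was 0.167 with GC removal and with the block added, 0.0844 on library totals, -0.161 to 0.0384 leaving out 1 library at a time, 0.129 and 0.248 after GC removal without replicate 2 of NICD1 and of NICD2, 0.0533 without both and 0.212 without both after GC removal. HES6 was 0.367 with GC removal and with the block added. After GC removal HES6 was 0.302 and 0.370 without replicate 2 of NICD1 and of NICD2, and 0.306 without both. HEYL was 0.0588 with GC removal and with the block added, and 0.00583 on library totals. After GC removal HEYL was 0.0691 and 0.0568 without replicate 2 of NICD1 and of NICD2, and 0.0684 without both. ID1 was 0.101 with GC removal and with the block added, and 0.0790 on library totals. After GC removal ID1 was 0.0675 and 0.141 without replicate 2 of NICD1 and of NICD2, and 0.109 without both. RBPJ was 0.111 on library totals. Depth limits genes near 0.5 CPM most, and counting intervals cover counting error only.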

Other observations

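Several non-coding classes had more genes called lower than higher in NICD2. Processed pseudogenes counted 19 higher and 130 lower of 393 tested (median -0.50), antisense genes 20 and 100 of 514, long intergenic non-coding genes 36 and 72 of 413, and protein-coding genes 2641 and 2385 of 12891. These class counts come from the main fit alone and were not repeated with the GC trend removed or without a replicate 2. Pseudogenes share reads with their parent genes, so their counts are uncertain. GLIS3-AS1, an antisense gene on chromosome 9 and the largest non-coding fall, had 0.734, 0.484 and 0.542 CPM in NICD2 libraries, against 20.1, 24.3 and 19.3 in NICD1 libraries and 0.0128 in EV (-5.06 ± 0.22, limma adjusted p = 2.9e-09). NICD1 libraries were the only high ones of these 3 groups. TMEM132D-AS1 was at 5.08 ± 0.81 and 0.639 ± 0.22 CPM in NICD2 and NICD1, with EV at 72.1 ± 12 (2.92 ± 0.20), and NR2F1-AS1 rose by 2.61 ± 0.29. PINCR, a long non-coding RNA linked to p53, was at 11.1 ± 0.69, 3.11 ± 0.45 and 5.21 ± 0.51 CPM in NICD2, NICD1 and EV (1.82 ± 0.13). Without strand information, reads of an antisense gene and its partner cannot be told apart.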
